A study of Mus musculus with 47 samples.

Results

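The comparison described here set the livers of mice that received a TiO2 sunscreen before each exposure to ultraviolet radiation (TiO2 + UVR) against the livers of mice that received the same radiation with no sunscreen (Control + UVR). It held 6 arrays of TiO2 + UVR and 6 arrays of Control + UVR, 1 array per mouse, chosen by their sunscreen and UVR labels, so 12 of the 47 arrays of the series. The mice were female SKH:QS animals, an immune-competent hairless strain, 8 weeks old at entry, and were given 30 treatments over 36 weeks. UVR was 29 kJ/m2 per treatment. Sunscreen went on the skin 20 min before the exposure and was washed off after 2 h, and Control + UVR mice wore the same collars and were washed but had no product. The TiO2 product was a commercial sunscreen that held organic UVR filters (octylmethoxycinnamate and butyl methoxydibenzoylmethane) beside the TiO2 nanoparticles, so particles and filters cannot be told apart. The other groups used here were TiO2-UVR (the same product, no UVR), Control-UVR (neither), ZnO + UVR and Organic + UVR (a ZnO or an all-organic product with UVR), and the same 2 products without UVR. The study's methods describe 1 cage for all mice of a treatment group, while the labels give individual cages. If the methods hold, the cage and the treatment cannot be told apart. The study reports that some Control + UVR mice left before its end with malignant or pre-malignant findings, while all TiO2 + UVR mice reached it. Most Control + UVR mice that remained had skin hyperplasia and inflammation. The labels place every array at 36 weeks. Liver was taken 24 h after the last irradiation under a cycle of 14 h light and 10 h dark, and the hour of day at which each mouse was sampled was not given in the sources used here.

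Liver keeps a daily clock in which the activators CLOCK, its relative NPAS2 and BMAL1 bind E-boxes and switch on their own repressors, the PER and CRY proteins, CIART and the REV-ERB receptors encoded by Nr1d1 and Nr1d2. REV-ERBs repress genes with ROR elements, among them Npas2 and Nfil3, while the PAR bZIP factors DBP, TEF and HLF and their opponent NFIL3 meet at D-boxes and pass the rhythm to output genes. These outputs include much of the liver's handling of fat, amino acids, sterols, NAD and foreign compounds. The comparison asked which liver transcripts differed when the TiO2 product had been put on the skin before UVR.

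Ciart, Rgs16, Gdap10 and Nampt had the largest increases and Tubb2a, Npas2 and Slc30a10 the largest decreases among named genes. Ciart, Nampt, Fmo2, Nr1d2, Tef and Hlf were higher in TiO2 + UVR, and Tubb2a, Npas2, Slc30a10, Ddc, Nfil3 and Insig2 were lower. Of 9815 transcripts tested, 69 (0.703%) were called at an adjusted p under 0.1 (limma, Benjamini-Hochberg over all transcripts), 43 (0.438%) higher and 26 (0.265%) lower, and 830 (8.46%) had an unadjusted p under 0.05. The 63 called transcripts with 1 gene symbol stood for 35 genes higher and 25 genes lower. Differences are log2 differences of RMA values, TiO2 + UVR minus Control + UVR, given with the standard error (SE) of the fit, and 1 unit is a 2-fold difference in probe signal. The called differences lay between 0.468 and 2.33 log2 units in size, against a median 95% half-width of 0.29 over all transcripts. In 31 of the 69 the 6 TiO2 + UVR and the 6 Control + UVR values did not overlap, as in 0.601% of all transcripts. The count moved with single arrays. Leaving out TiO2 + UVR replicate 6 gave 26 calls, leaving out TiO2 + UVR replicate 4 gave 39 and leaving out replicate 6 of Control + UVR gave 38. Organic-UVR replicate 1 lies outside the comparison but enters the common estimate of spread, and 121 were called without it. None of the 69 changed direction in any of these fits, and 21 of the 63 stayed called whichever of the 12 arrays was left out.

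The table used here held 9815 of the array's transcripts, mostly of chromosomes 1 and 10 to 16 (1281 on chromosome 1, 1632 on chromosome 11), and the rest were not analysed here. The median log2 value of an array was between 5.19 and 5.28 in TiO2 + UVR and between 5.17 and 5.27 in Control + UVR. Array slopes on the mean of all arrays averaged 0.9957 in TiO2 + UVR and 0.9841 in Control + UVR (exact permutation test, two-sided, p = 0.506, n = 6 each), while Organic-UVR replicate 1 had a slope of 0.772. The 8 hepatocyte markers measured, such as Apob and Cps1, had a median member at the 99.8th percentile of all transcripts, as liver should. Each array was from another mouse. The limma p-values rest on a common estimate of spread from all arrays of the series, with replicate number as a term. They do not measure the spread between the compared mice alone.

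**Figure D1:**
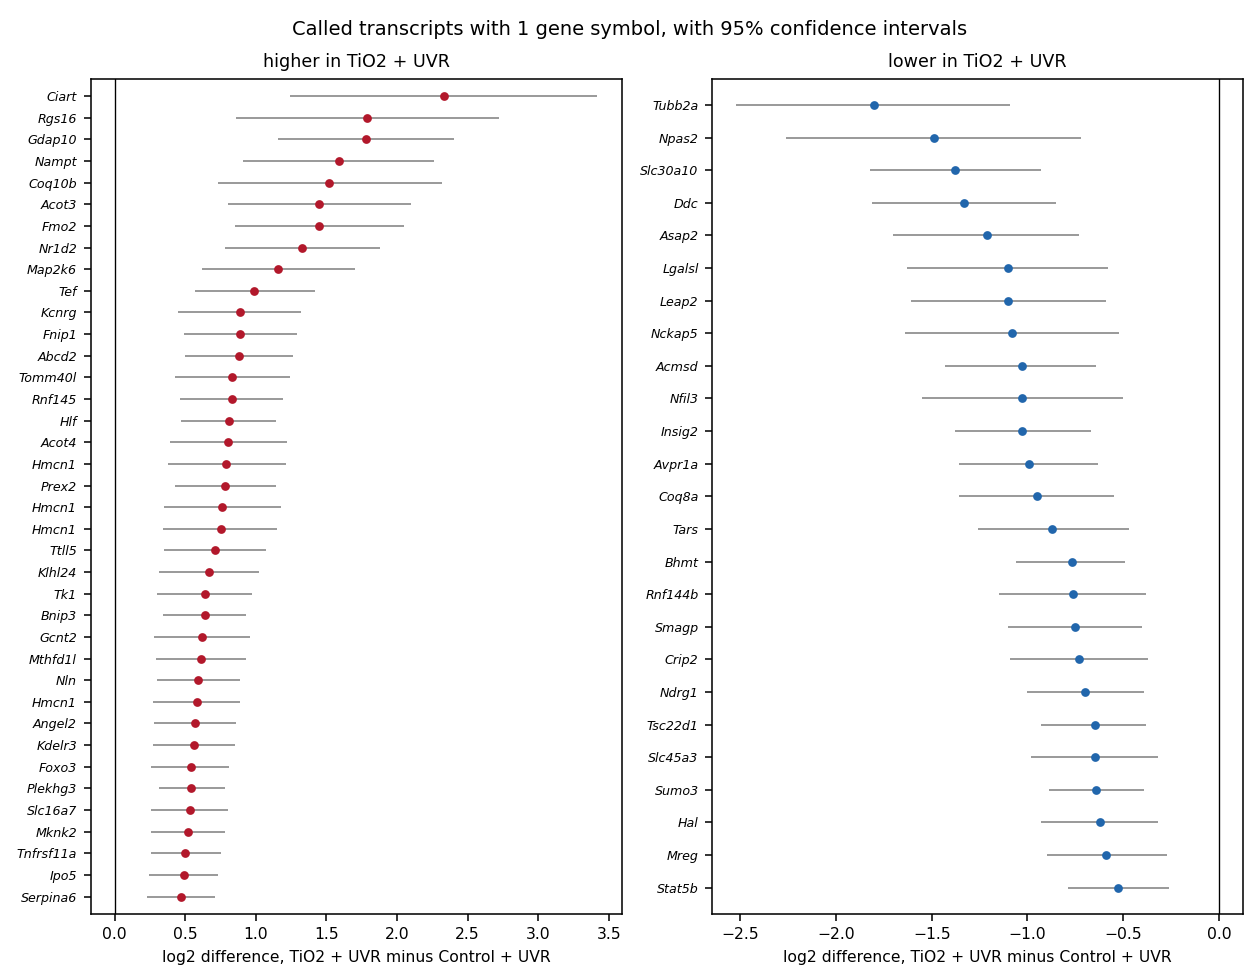
Log2 difference (x axis, TiO2 + UVR minus Control + UVR) of the 63 called transcripts with 1 gene symbol, the 38 higher in TiO2 + UVR at the left and the 25 lower at the right. Points are fitted differences and bars their 95% confidence intervals, from 2.33 for Ciart to -1.80 for Tubb2a, and each Hmcn1 point is a separate transcript.

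Clock genes were among the strongest differences. Of 13 measured members of the 3 clock lists, 6 were called, 4 of them higher in TiO2 + UVR and 2 lower, against 0.438% and 0.265% of all transcripts. The gene lists here and below were chosen with earlier results of these data known. Their shares of calls are descriptions and not a test of enrichment. Ciart, a repressor of the CLOCK and BMAL1 pair, had the largest increase of all. Its log2 values ran from 7.34 through a median of 8.26 to 9.13 in TiO2 + UVR and from 5.41 through 5.68 to 6.99 in Control + UVR. The groups did not overlap, and the fitted difference was 2.33 (SE 0.54, adjusted p = 0.031), a 5.03-fold difference. The number of the Ciart probeset lies among those of chromosome 10 while the gene is on chromosome 3, so the identity of this signal rests on the platform's annotation.

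Nr1d2, which encodes the repressor REV-ERB beta, had values of 9.13 to 9.59 in TiO2 + UVR (median 9.25) and of 7.43 to 8.63 in Control + UVR (median 7.87). All 6 TiO2 + UVR arrays were above all Control + UVR arrays, with a difference of 1.33 (SE 0.27, adjusted p = 0.012). The other 5 TiO2 + UVR arrays lay within a narrow band below replicate 3. Tef ranged over 6.59, 7.07 and 7.33 (lowest, median, highest) in TiO2 + UVR and over 5.56, 6.10 and 6.49 in Control + UVR, and the difference was 0.99 (SE 0.21, adjusted p = 0.015). Hlf ranged over 7.44, 7.61 and 7.89 in TiO2 + UVR and over 6.49, 6.72 and 7.34 in Control + UVR, a difference of 0.81 (SE 0.17, adjusted p = 0.012). Both PAR bZIP activators were thus higher in every TiO2 + UVR array than in any Control + UVR array.

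On the other side of the loop, Npas2, the CLOCK relative, was lower. Its values were 3.86, 4.07 and 4.46 (lowest, median, highest) in TiO2 + UVR and 5.11, 5.65 and 6.16 in Control + UVR, with no overlap and a difference of -1.49 (SE 0.38, adjusted p = 0.063). The call for Npas2 held in 4 of the 12 fits that left out 1 array each. Nfil3, the repressor that opposes TEF and HLF at D-boxes, had 7.01, 7.33 and 8.08 in TiO2 + UVR and 7.96, 8.45 and 9.32 in Control + UVR. These ranges overlapped slightly, the difference was -1.03 (SE 0.26, adjusted p = 0.061), and the call held in 6 of the 12 fits.

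Other clock members were not called. Per2 had a difference of 0.56 (95% interval 0.22 to 0.90, adjusted p = 0.17) and Per1 one of 0.51 (0.12 to 0.90, adjusted p = 0.36). Nr1d1, which encodes REV-ERB alpha, spread over 6.25 to 10.64 in TiO2 + UVR and over 6.98 to 9.75 in Control + UVR, the widest range of the 13 clock genes measured in both groups. Its difference of 0.11 had an interval from -1.04 to 1.26, which covers changes of more than 1 log2 unit in either direction for this close relative of Nr1d2. Cry1 had a difference of -0.08 (interval -0.72 to 0.56), and Csnk1d, Csnk1e and Fbxl21, which act on the stability of the PER and CRY proteins, lay between -0.03 and 0.06. The 9 measured genes of the repressing arm had a median difference of 0.11, against 0.01 over all transcripts.

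**Figure D2:**
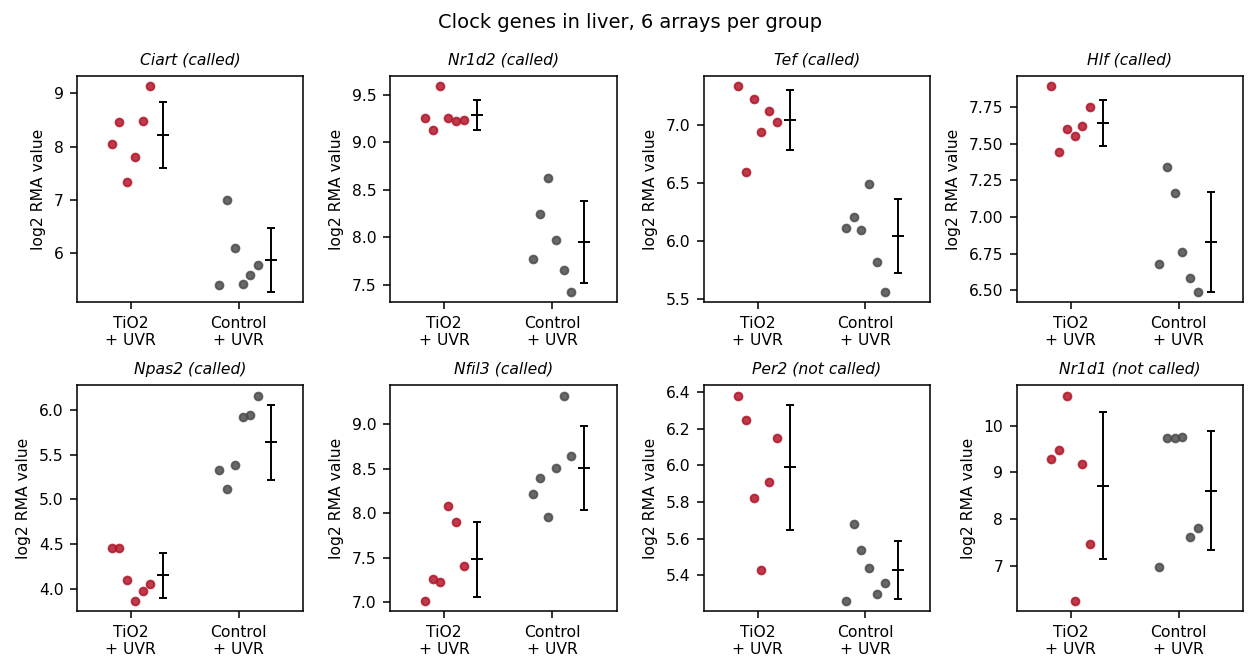
Log2 RMA value (y axis) of 8 clock genes in each of the 6 TiO2 + UVR arrays (left, red) and the 6 Control + UVR arrays (right, grey), with mean and SD as bars. Ciart, Nr1d2, Tef and Hlf were higher and Npas2 lower with no overlap, Nfil3 overlapped slightly, and Per2 and Nr1d1 were not called.

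To place every array on 1 scale, the standardized levels of 7 genes (Per1, Per2, Nr1d1, Nr1d2, Ciart, Tef and Hlf) were averaged, and the average of 3 others (Npas2, Nfil3 and Cry1) was subtracted. This clock score ran from 0.18 to 2.30 in TiO2 + UVR (median 1.62) and from -1.72 to 0.12 in Control + UVR (median -0.68). The score was -2.90 to 0.61 in TiO2-UVR, -2.11 to 1.78 in Control-UVR, -2.33 to -1.07 in ZnO + UVR, 0.88 to 1.93 in Organic + UVR, -1.82 to 2.05 in ZnO-UVR and 1.20 to 2.68 in Organic-UVR. It holds the 6 called clock genes, so it is not independent of the calls, and it did not overlap between TiO2 + UVR and Control + UVR. Within these 12 arrays score and group went together. With the score as a covariate, chosen after seeing the data, limma called 0 transcripts, with 418 at an unadjusted p under 0.05, 55 of them among the 69.

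Promoter sequence was examined for the sites named above because the called genes differed in direction. Windows of 300 bases, 250 before to 50 after the annotated start, came from RefSeq (GRCm38.p6), where 50 of the 60 called genes matched. The motifs searched on both strands were the E-box CACGTG, the D-box TTATGTAA or TTACGTAA and the ROR element core TNGGTCA. The E-box was in 9 of 41 windows of genes called higher (22.0%), in 2 of 39 windows of genes called lower (5.13%) and in 7.15% of all 32851 windows. The ROR element core was in 2 of 41 windows of genes called higher (4.88%), in 9 of 39 of genes called lower (23.1%) and in 10.97% of all windows. The D-box was in 3 of 41 windows of genes called higher (7.32%), in 0 of 39 of genes called lower and in 1.06% of all windows. Windows of 1 gene can overlap, and a match is a description of the letters, not a bound site. The set of all windows covers 27025 genes, whether or not they were measured here or are active in liver. It is thus not a matched background for the called genes, and enrichment was not tested. The windows of 3 genes called higher and 2 called lower are shown with motif letters in capitals, 5′ to 3′ on the strand of the gene, chosen after the search because they hold matches. Other called genes hold matches too, among them Acot4, Bnip3, Fnip1, Nln and Rnf145 for the E-box and Ddc, Hal, Insig2 and Sumo3 for the ROR element core. The windows of Nr1d2 and Npas2 hold 0 matches to any of these motifs, which says only that the letters are not in these windows. The Ciart window holds 3 E-boxes starting 116, 58 and 44 bases before the start (minus strand, chr3:95882179-95882478). The Coq10b window holds a D-box 162 and an E-box 78 bases before it (plus strand, chr1:55052520-55052819). The Tef window, the one of 2 with more matches, holds a ROR element core 219 and an E-box 138 bases before it (plus strand, chr15:81811164-81811463). The Nfil3 window holds a ROR element core 12 bases before the start (minus strand, chr13:52980990-52981289) and the Bhmt window holds 3, at 235, 146 and 100 bases (minus strand, chr13:93637709-93638008).
Ciart: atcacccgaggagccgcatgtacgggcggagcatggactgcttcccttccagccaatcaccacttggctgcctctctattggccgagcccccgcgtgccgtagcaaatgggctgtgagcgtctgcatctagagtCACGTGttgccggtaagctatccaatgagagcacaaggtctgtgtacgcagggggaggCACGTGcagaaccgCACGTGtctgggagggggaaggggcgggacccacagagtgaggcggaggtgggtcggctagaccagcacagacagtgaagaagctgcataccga
Coq10b: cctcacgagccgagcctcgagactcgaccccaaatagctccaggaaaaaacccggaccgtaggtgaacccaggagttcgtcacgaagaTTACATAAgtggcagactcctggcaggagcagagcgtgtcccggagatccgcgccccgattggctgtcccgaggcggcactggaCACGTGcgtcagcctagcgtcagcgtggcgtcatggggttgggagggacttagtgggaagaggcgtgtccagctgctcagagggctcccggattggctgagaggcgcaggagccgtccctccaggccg
Tef: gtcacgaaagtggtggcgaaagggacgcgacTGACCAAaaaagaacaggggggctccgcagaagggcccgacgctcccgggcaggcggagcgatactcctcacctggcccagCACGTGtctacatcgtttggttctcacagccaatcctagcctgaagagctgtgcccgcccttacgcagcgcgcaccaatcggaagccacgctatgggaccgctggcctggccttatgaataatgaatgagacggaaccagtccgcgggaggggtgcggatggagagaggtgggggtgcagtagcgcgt
Nfil3: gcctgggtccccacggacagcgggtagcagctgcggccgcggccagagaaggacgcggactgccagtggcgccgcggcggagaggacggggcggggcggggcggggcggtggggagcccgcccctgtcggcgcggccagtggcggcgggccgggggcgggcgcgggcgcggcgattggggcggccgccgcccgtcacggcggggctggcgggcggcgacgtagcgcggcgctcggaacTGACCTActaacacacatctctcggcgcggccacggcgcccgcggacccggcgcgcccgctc
Bhmt: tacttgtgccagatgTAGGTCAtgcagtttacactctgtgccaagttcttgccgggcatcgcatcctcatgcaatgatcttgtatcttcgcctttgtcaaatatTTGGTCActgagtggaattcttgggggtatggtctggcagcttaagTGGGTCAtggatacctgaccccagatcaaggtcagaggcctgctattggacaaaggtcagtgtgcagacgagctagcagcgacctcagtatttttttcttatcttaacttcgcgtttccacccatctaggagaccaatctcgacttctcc

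Nampt and its neighbour Gdap10 were among the next largest increases. Nampt, the rate-limiting enzyme of NAD salvage from nicotinamide, had log2 values of 8.73, 9.24 and 9.74 (lowest, median, highest) in TiO2 + UVR and of 7.07, 7.77 and 8.11 in Control + UVR. The groups did not overlap and the difference was 1.59 (SE 0.33, adjusted p = 0.015), 3.00-fold. Gdap10, a noncoding RNA gene that lies within the Nampt locus, differed by 1.78 (SE 0.31, adjusted p = 0.0025), with 5.82 to 7.25 in TiO2 + UVR and 4.14 to 5.28 in Control + UVR. The 2 probesets lie at the same place in the genome, so they may not be independent. Coq10b, a mitochondrial coenzyme Q-binding protein whose promoter window is shown above, differed by 1.52 (SE 0.39, adjusted p = 0.063) with no overlap, and Coq8a, which is needed to make coenzyme Q, differed the other way by -0.95 (SE 0.20, adjusted p = 0.015).

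Acmsd, which steers a tryptophan breakdown product away from NAD synthesis, was lower. Its values were 6.54, 6.90 and 7.24 in TiO2 + UVR and 7.72, 7.96 and 8.11 in Control + UVR, a difference of -1.03 (SE 0.20, adjusted p = 0.0063). The Acmsd call held in each of the 12 fits that left out 1 array. Fmo2, a flavin-containing monooxygenase that oxidises foreign compounds, was higher by 1.45 (SE 0.30, adjusted p = 0.012). Its values ran from 8.10 to 8.82 in TiO2 + UVR and from 6.33 to 7.82 in Control + UVR. Fmo2 was the only called gene of 21 measured cytochrome P450, flavin monooxygenase and aldehyde oxidase genes, whose median difference was 0.02. None of 13 conjugation enzymes was called, with 0.703% of all transcripts called.

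Genes of fatty acid use were called in 1 direction. Of 13 measured genes of the PPAR alpha and fatty acid oxidation list, 3 were higher and 0 lower, against 0.438% and 0.265% of all transcripts, with a list median of 0.25. At an unadjusted p under 0.05 (limma) the list held 5 higher and 1 lower, against 5.12% and 3.33% of all transcripts. Its differences ran from -0.96 to 1.45, with 11 positive and 2 negative. Acot3, a peroxisomal acyl-CoA thioesterase, had 6.55, 7.32 and 7.87 in TiO2 + UVR and 5.28, 5.83 and 6.18 in Control + UVR, with no overlap and a difference of 1.45 (SE 0.32, adjusted p = 0.023). Its neighbour and relative Acot4 differed by 0.80 (SE 0.21, adjusted p = 0.063), and probes of such close copies may share signal. Abcd2, the peroxisomal importer of very long chain fatty acids, had 8.93, 9.80 and 9.98 in TiO2 + UVR and 8.31, 8.87 and 9.05 in Control + UVR, so that only the lowest TiO2 + UVR array reached into the other group. Its difference was 0.88 (SE 0.19, adjusted p = 0.015). None of 9 fatty acid synthesis genes was called, and Lpin1, which makes diacylglycerol, had a difference of 1.15 (interval 0.35 to 1.96, adjusted p = 0.28) with 8.44 to 10.12 in TiO2 + UVR and 7.42 to 8.24 in Control + UVR.

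Sterol control showed 1 call among 10 measured genes, with 0.703% of all transcripts called. Insig2, which holds the sterol sensor complex in the endoplasmic reticulum, had 8.71, 9.24 and 9.68 in TiO2 + UVR and 9.93, 10.04 and 10.64 in Control + UVR. The groups did not overlap, and the difference of -1.03 (SE 0.17, adjusted p = 0.0025), 2.04-fold lower, stayed called without any 1 of the 12 arrays. Of the other members, 8 had positive differences and 1 a negative one, among them Lss at 0.61 (adjusted p = 0.58), Idi1 at 0.43 (adjusted p = 0.68) and Hsd17b7 at 0.37 (adjusted p = 0.55), all enzymes of cholesterol synthesis. Rnf145, a ubiquitin ligase of the endoplasmic reticulum known to act on sterol control, was higher by 0.83 (SE 0.18, adjusted p = 0.021), with 7.36 to 8.43 in TiO2 + UVR and 6.66 to 7.24 in Control + UVR. The 3 measured genes of heme synthesis and breakdown (Cpox, Ppox and Hmox2) were not called and lay between -0.11 and 0.02.

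Amino acid breakdown genes were called lower only. Of 15 measured genes 3 were lower and 0 higher, against 0.265% and 0.438% of all transcripts, with a list median of -0.11. Ddc, the decarboxylase of DOPA and 5-hydroxytryptophan, had 6.54, 7.26 and 8.19 in TiO2 + UVR and 7.46, 8.72 and 9.22 in Control + UVR, a difference of -1.33 (SE 0.24, adjusted p = 0.0033). The overlap of Ddc came from Control + UVR replicate 1 at 7.46, while the next lowest Control + UVR array was at 8.60. Hal, which opens histidine breakdown, differed by -0.62 (SE 0.15, adjusted p = 0.047), and Acmsd was the third. Bhmt, which remethylates homocysteine with betaine, had 7.70, 8.05 and 8.62 in TiO2 + UVR and 8.45, 8.85 and 9.24 in Control + UVR, a difference of -0.77 (SE 0.14, adjusted p = 0.0033), while Mthfd1l of the mitochondrial folate cycle was higher by 0.61 (SE 0.16, adjusted p = 0.063). They were the 2 calls among 14 measured methionine and one-carbon genes. Tars, the threonyl-tRNA synthetase, was lower without overlap, by a difference of -0.87 (SE 0.20, adjusted p = 0.028), the only call among 8 tRNA synthetase list genes.

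The smallest adjusted p of all belonged to Slc30a10, an exporter of manganese from the cell that carries the family name of zinc transporters. Its values were 6.31, 6.97 and 7.22 in TiO2 + UVR and 7.99, 8.28 and 8.48 in Control + UVR. The 2 groups were separated by a gap, and the difference was -1.38 (SE 0.22, adjusted p = 0.0021), 2.59-fold lower. None of the other 11 measured zinc and manganese transporters was called, with 0.703% of all transcripts called. Slc30a1, the zinc exporter of the plasma membrane, had a difference of 0.24 (adjusted p = 0.66).

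Tubb2a, a beta-tubulin, showed the largest decrease. It had 6.19, 7.10 and 8.08 in TiO2 + UVR and 8.64, 8.99 and 9.10 in Control + UVR, with no overlap and a difference of -1.80 (SE 0.35, adjusted p = 0.0085), 3.49-fold lower. The TiO2 + UVR values were spread over almost 2 log2 units while those of Control + UVR were tight. Of the other 8 tubulin and stathmin genes none was called: Tuba4a had -0.66 (adjusted p = 0.23) and Tubb2b, the close copy of Tubb2a, had -0.12 (adjusted p = 0.92) at a level of 4.40 to 4.66 in TiO2 + UVR and 4.34 to 4.93 in Control + UVR. Asap2, a regulator of ARF GTPases at adhesion sites, was lower by a difference of -1.21 (SE 0.24, adjusted p = 0.0094) with no overlap, and Nckap5 by one of -1.08 (SE 0.28, adjusted p = 0.063). They were the only calls among 13 measured genes of the actin nucleation and adherens junction list, with 0.265% of all transcripts called lower. That list was filled at least in part by the start of gene symbols, so membership does not show a role in actin nucleation.

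Signalling genes were called in both directions. Rgs16, which shortens signalling by G protein-coupled receptors, had 7.56, 9.56 and 11.21 in TiO2 + UVR and 7.01, 7.51 and 7.94 in Control + UVR, a difference of 1.79 (SE 0.46, adjusted p = 0.063). Its TiO2 + UVR arrays were widely scattered, with 2 arrays inside the range of Control + UVR, and the call held in 6 of the 12 fits without 1 array. Map2k6, the kinase that activates p38, was higher by 1.16 (SE 0.27, adjusted p = 0.028), with 7.20 to 8.14 in TiO2 + UVR and 5.90 to 7.14 in Control + UVR. Fnip1, a partner of folliculin in nutrient sensing, was higher by 0.89 (SE 0.20, adjusted p = 0.023), with no overlap. Avpr1a, the vasopressin receptor of hepatocytes, had 8.03, 8.84 and 9.25 in TiO2 + UVR and 9.42, 9.70 and 10.05 in Control + UVR, a difference of -0.99 (SE 0.18, adjusted p = 0.0033). Stat5b, a signal transducer of growth hormone, had a difference of -0.53 (SE 0.13, adjusted p = 0.061) without overlap, and Foxo3, a transcription factor restrained by insulin, one of 0.54 (SE 0.14, adjusted p = 0.063).

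Further calls came from secreted and matrix products. Leap2, a peptide of liver and gut that blocks the ghrelin receptor, had 5.50, 6.00 and 7.68 in TiO2 + UVR and 7.02, 7.66 and 7.84 in Control + UVR, a difference of -1.10 (SE 0.25, adjusted p = 0.028), with 2 TiO2 + UVR arrays inside the range of Control + UVR. Leap2 was not called with no replicate block (adjusted p = 0.54) or in the compared groups alone (adjusted p = 0.15). Lgalsl, a galectin-like protein, differed by -1.10 (SE 0.26, adjusted p = 0.037). Serpina6, the corticosteroid-binding globulin, was higher by 0.47 (SE 0.12, adjusted p = 0.061). It was the only call among 38 clade A and B serpins, with 0.703% of all transcripts called. Hmcn1, a large matrix protein, was called higher by 4 separate transcripts with differences between 0.58 and 0.79. These calls held in 2 to 4 of the 12 fits without 1 array, and none of the 4 was made with no replicate block (adjusted p from 0.24 to 0.58). Bnip3, which marks mitochondria for removal, was higher by 0.64 (SE 0.15, adjusted p = 0.028). The Bnip3 probeset, like that of Ciart, carries a number that lies among those of another chromosome (14, while the gene is on chromosome 7), as did 250 of 7420 named transcripts.

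Of the remaining calls, Kcnrg, a potassium channel regulator, was higher by 0.89 (SE 0.21, adjusted p = 0.047), and Tomm40l, a relative of the mitochondrial import pore, by 0.83 (SE 0.20, adjusted p = 0.047), both without overlap. Tk1, the thymidine kinase of dividing cells, was higher by 0.64 (SE 0.16, adjusted p = 0.064). It was the only call among 22 cell division and DNA replication genes, with 0.703% of all transcripts called. Klhl24, Gcnt2, Nln, Angel2, Plekhg3, Slc16a7, Prex2, Ttll5, Kdelr3, Tnfrsf11a and Ipo5 were higher by 0.49 to 0.78. The Gcnt2 call held in 0, the Tk1 call in 3, the Klhl24 call in 4 and the Plekhg3 call in 12 of the 12 fits without 1 array. The Kcnrg and Tomm40l calls each held in 7 of these fits. Kcnrg was not called without TiO2 + UVR replicate 2, its highest array. Among the decreases, Sumo3, a small ubiquitin-like modifier, differed by -0.64 (SE 0.12, adjusted p = 0.0071). Ndrg1, Crip2, Smagp, Rnf144b, Slc45a3, Tsc22d1 and Mreg differed by -0.59 to -0.76. Igfbp1, a liver-secreted binder of insulin-like growth factors, had a difference of -1.10 that was not called (interval -1.84 to -0.37, adjusted p = 0.24), with 7.11 to 8.57 in TiO2 + UVR and 7.44 to 10.29 in Control + UVR.

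Lists of damage and immune genes held no calls. In the list of immediate early genes and stress kinases, 1 of 19 was called, Mknk2, a kinase of the cap-binding factor eIF4E, with a difference of 0.52 (SE 0.13, adjusted p = 0.047). Of 16 measured p53 genes, 23 of strand break repair, 18 of excision repair, 25 NF-kB targets and chemokines, 14 of the interferon response, 15 antioxidant enzymes and 25 of endoplasmic reticulum stress and heat shock, 0 were called in either direction by limma. Of all transcripts 0.703% were called, a share at which lists of this size can hold 0 calls. At an unadjusted p under 0.05, met by 5.12% of all transcripts in the higher and 3.33% in the lower direction, the p53 list held 1 higher and 3 lower, strand break repair 2 higher, excision repair 1 higher, the interferon list 1 higher and the endoplasmic reticulum list 1 lower. The NF-kB and antioxidant lists held 0 at that level. Gadd45g, a growth arrest gene of the p53 list, had a difference of -0.97 (interval -1.54 to -0.40, adjusted p = 0.15), with 3.97 to 4.44 in TiO2 + UVR and 3.73 to 7.30 in Control + UVR. The medians of these 7 lists lay between -0.05 and 0.09. Of 36 ribosomal protein genes, 32 had a negative difference, none was called and the median was -0.09 (-0.10 after quantile normalization).

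Markers of the other cells in liver moved little. None of 10 Kupffer and macrophage, 12 endothelial, 18 stellate, 13 bile duct, 14 T and NK, 12 B, 8 neutrophil or 2 erythroid markers was called. With 0.703% of all transcripts called, lists this small can hold 0 calls. Of the Kupffer markers 9 of 10, of the endothelial markers 10 of 12 and of the stellate markers 16 of 18 had positive differences, with medians of 0.19, 0.10 and 0.11. The mean log2 level of the Kupffer markers ran from 6.21 to 6.95 in TiO2 + UVR and from 6.05 to 6.48 in Control + UVR. That of the stellate markers ran from 6.21 to 6.35 in TiO2 + UVR and from 6.06 to 6.24 in Control + UVR, and that of the 8 hepatocyte markers from 11.50 to 11.82 in TiO2 + UVR and from 11.49 to 11.88 in Control + UVR. The part of cell composition in the calls was not tested, and in whole liver fewer cells of a type and less RNA per cell cannot be told apart.

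**Figure D3:**
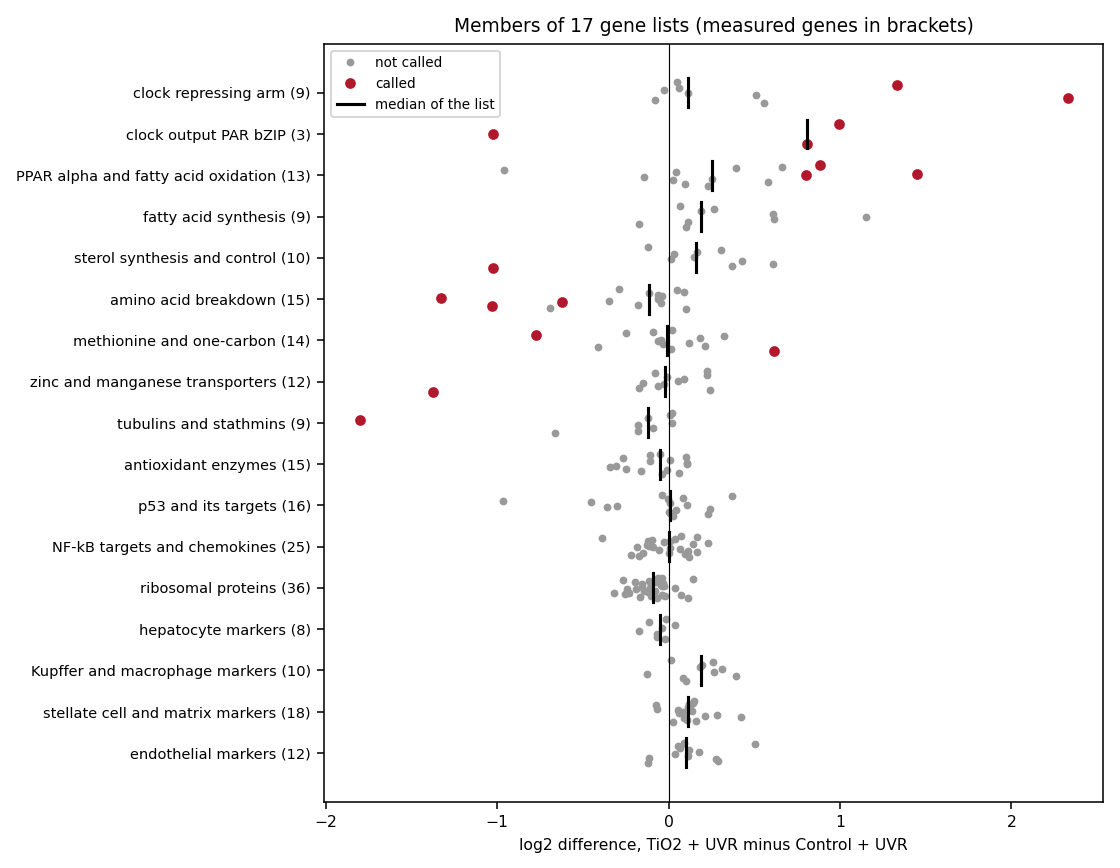
Log2 difference (x axis, TiO2 + UVR minus Control + UVR) of each measured member of 17 gene lists (y axis), with called members in red and the list median as a bar. Calls stand at the edges of the clock, fatty acid, amino acid, sterol, transporter and tubulin lists, and the p53, NF-kB, ribosomal protein and cell type lists hold none. Of all transcripts 0.703% were called.

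The same product without UVR gave no calls. TiO2-UVR against Control-UVR, which shares no array with the comparison under UVR, called 0 of 9815 transcripts in limma, with 379 (3.86%) at an unadjusted p under 0.05. Of the 69 transcripts called under UVR, 12 had the same sign without UVR. Ciart differed without UVR by -0.56 (interval -1.65 to 0.53), Slc30a10 by 0.24 (-0.21 to 0.69) and Tubb2a by 0.45 (-0.26 to 1.16).

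The difference between the differences was tested as an interaction, which uses the arrays of all 4 groups. It called 17 transcripts (0.173%), 9 positive (0.0917%) and 8 negative (0.0815%). In all 17 the difference with UVR had the opposite sign to that without it. It was positive under UVR in the 9 and negative under UVR in the 8. All 17 were also called under UVR, and selection by the interaction favours genes whose difference without UVR fell on the opposite side. Of the transcripts called under UVR, only 3 had an unadjusted p under 0.05 without UVR (limma). No transcript was called without UVR, so a reversal was not shown. Nr1d2 led the 9 positive interactions. Its values without UVR were 6.63, 7.62 and 8.70 in TiO2-UVR and 7.53, 8.26 and 9.03 in Control-UVR, a difference of -0.80, so the interaction was 2.13 (SE 0.38, adjusted p = 0.012). Abcd2 was the second, at 1.43 (SE 0.26, adjusted p = 0.012), with 8.42 to 9.52 in TiO2-UVR and 9.27 to 9.96 in Control-UVR. The Control + UVR arrays were the low ones for this gene under UVR, at 8.31 to 9.05, and the TiO2-UVR arrays were the low ones without it. Gdap10, Rnf145, Bnip3, Hlf, Fmo2, Ipo5 and Fnip1 were the other 7 positive ones.

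Of the negative ones, Slc30a10 had the smallest p, at -1.62 (SE 0.31, adjusted p = 0.020), with 8.13 to 8.63 in TiO2-UVR and 7.58 to 8.65 in Control-UVR. Insig2 stood at -1.25 (SE 0.25, adjusted p = 0.020), Avpr1a at -1.26 (SE 0.25, adjusted p = 0.020), Ddc at -1.65 (SE 0.33, adjusted p = 0.020) and Tubb2a at -2.25 (SE 0.50, adjusted p = 0.047). Acmsd, Bhmt and Tsc22d1 completed the 8. The interaction of Ciart was 2.89 (SE 0.76) and missed the threshold (adjusted p = 0.13), as did those of Nampt at 1.84 (adjusted p = 0.11) and Npas2 at -2.09 (adjusted p = 0.12). The count of 17 moved with single arrays too. It was 9 without TiO2-UVR replicate 1, 10 without either TiO2 + UVR replicate 3 or replicate 6 of Control + UVR, and 11 without either Control + UVR replicate 5 or Control-UVR replicate 6. It was 29 without TiO2 + UVR replicate 5, 33 without Control + UVR replicate 3, 34 when Control-UVR replicate 2 was left out and 76 when Organic-UVR replicate 1 was left out.

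**Figure D4:**
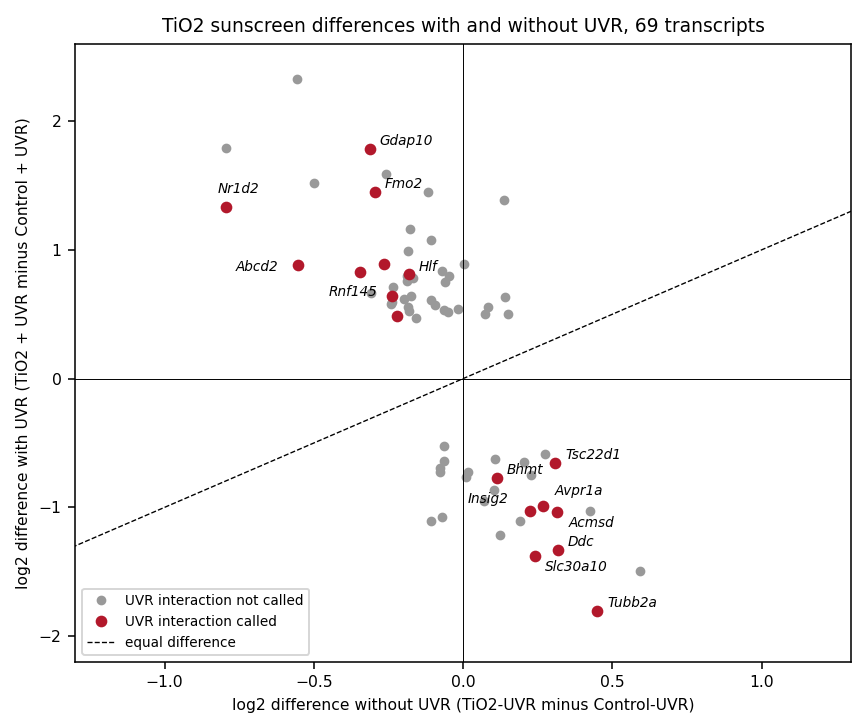
Log2 difference of TiO2 sunscreen against no sunscreen with UVR (y axis) and without UVR (x axis) for the 69 transcripts called with UVR, red where the interaction was called. The points lie mostly in the upper left and lower right, with 12 of 69 of the same sign on both axes, and those on the dashed line would have equal differences.

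The products under UVR were then set against each other. TiO2 + UVR against ZnO + UVR called 70 transcripts (0.713%), 21 higher (0.214%) and 49 lower (0.499%), and the TiO2 + UVR arrays are the same as above. Insig2 had the smallest p, with a difference of -1.33 (SE 0.18, adjusted p = 7.5e-05) and values of 8.71 to 9.68 in TiO2 + UVR and 10.24 to 10.69 in ZnO + UVR. Slc30a10 differed by -1.57 (SE 0.23, adjusted p = 2.0e-04), Npas2 by -2.55 (SE 0.40, adjusted p = 3.3e-04) and Ciart by 3.08 (SE 0.57, adjusted p = 0.0017). Ciart ranged over 4.31 to 5.80 in ZnO + UVR, below every TiO2 + UVR array. Abcd2 had a difference of 0.22 (SE 0.20, adjusted p = 0.89) between these products, and Fmo2 one of 0.95 (SE 0.31, adjusted p = 0.25). The count of 70 was 38 without ZnO + UVR replicate 1, 46 without TiO2 + UVR replicate 4 or 6, 127 without TiO2 + UVR replicate 1 and 111 when Organic-UVR replicate 1 was left out. ZnO + UVR against Control + UVR called 0 transcripts in limma (579, 5.9%, at an unadjusted p under 0.05), and Organic + UVR against Control + UVR called 6 (0.0611%), all lower. Slc30a10 differed by -1.11 and Tubb2a by -1.59 between Organic + UVR and Control + UVR, and these contrasts share their Control + UVR arrays with the one described here.

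TiO2 + UVR against Organic + UVR called 0 of 9815 transcripts in the common limma fit, with 380 (3.87%) at an unadjusted p under 0.05, and 25 lower in a fit of these 2 groups alone. The TiO2 product holds organic filters too. Slc30a10 differed by -0.26 (interval -0.71 to 0.19) between TiO2 + UVR and Organic + UVR, with 6.55, 7.12 and 7.93 in Organic + UVR. Tubb2a differed by -0.21 (-0.92 to 0.50), with 6.96 to 7.87 in Organic + UVR, and Nr1d2 by 0.27 (-0.28 to 0.81), with 8.71 to 9.36. Ciart differed by 1.02 (-0.07 to 2.11), with 5.40 to 9.11 in Organic + UVR, and Ddc by -0.49 (-0.96 to -0.01). These intervals leave room for differences in either direction for the first 4 genes, so likeness was not shown.

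In ZnO-UVR, Tubb2a, Ciart and Npas2 split the arrays of the group. Tubb2a stood at 5.76 and 6.67 in replicates 1 and 2 and at 8.72 to 9.30 in replicates 3 to 6. In the same 2 arrays Ciart stood at 9.04 and 8.53, against 4.87 to 5.64 in the other 4, and Npas2 at 4.39 and 4.02, against 6.04 to 7.00. Those 2 arrays lay within the TiO2 + UVR range for Ciart and Npas2, and for Tubb2a 1 lay within it and 1 below it, although the mice had received the ZnO product and no UVR. In Control-UVR, with neither product nor UVR, replicates 1 and 5 had clock scores of 1.78 and 1.62, inside the range of TiO2 + UVR, while the other 4 lay between -2.11 and -0.55. Npas2 stood at 4.12 and 4.20 and Tubb2a at 7.55 and 7.55 in those 2 Control-UVR arrays, inside the TiO2 + UVR ranges, and Ciart at 7.15 and 6.88, just below its TiO2 + UVR range. Organic-UVR had Ciart at 6.02 to 9.07, Slc30a10 at 6.75 to 7.30 and Tubb2a at 5.76 to 7.71. Slc30a10 was thus low in TiO2 + UVR, Organic + UVR and Organic-UVR and high in most arrays of the groups with no sunscreen, of TiO2-UVR and of ZnO + UVR.

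**Figure D5:**
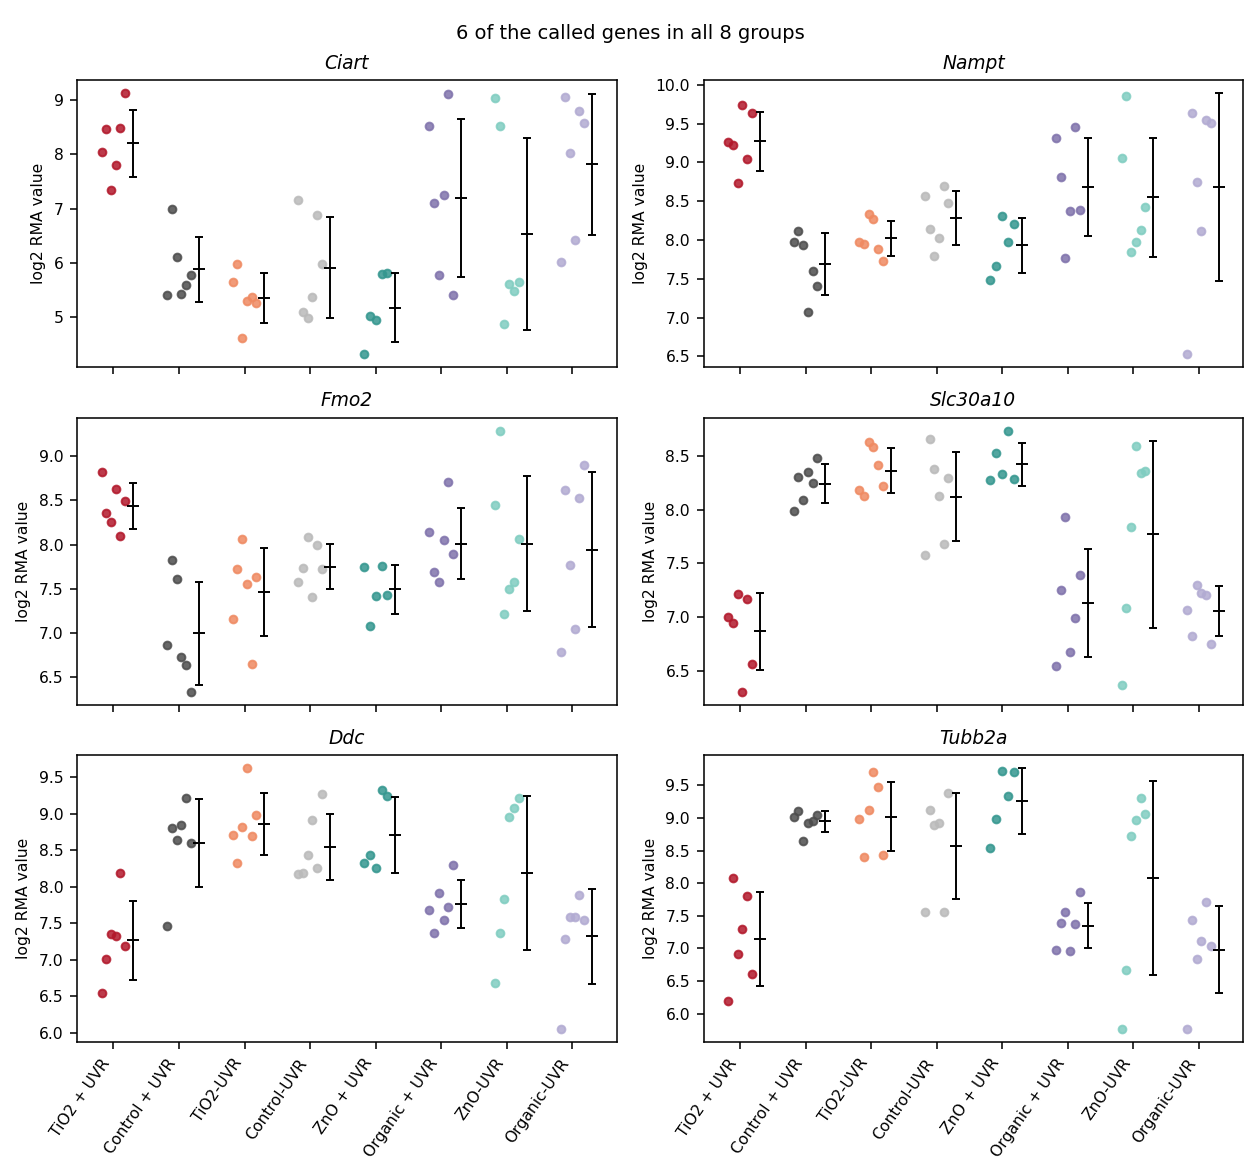
Log2 RMA value (y axis) of 6 called genes in each array of the 8 groups (x axis), with mean and SD as bars (n = 6 per group, 5 in ZnO + UVR). TiO2 + UVR stands apart from Control + UVR in 5 of the 6 panels, Ddc overlaps, and ZnO-UVR splits into 2 and 4 arrays for Ciart and Tubb2a.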

How the data were processed

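Liver RNA was hybridised to Affymetrix Mouse Gene 1.0 ST arrays, and the authors normalized them by robust multi-array average (RMA) and deposited log2 values. The study processed chips in batches with 1 chip per group and removed batch effects, but whether the deposited table had that correction, and which chip belonged to which batch, is not given in the sources used here. Of 16383 probesets, 6568 control probesets were left out. Symbols came from the platform annotation, updated by Entrez number (7421 of 7450 transcripts with 1 symbol matched). limma 3.58.1 in R 4.3.3 fitted all 47 arrays with group and the labels' replicate number as terms (34 residual degrees of freedom), with Benjamini-Hochberg adjusted p called under 0.1. The members and the 51 gene lists were chosen with earlier results of these data known. Named genes were the 12 largest called changes each way, the 3 smallest p of each list, all clock, heme, sterol and tubulin members and the leading interaction calls; other called genes were named after their values were seen. The brightest transcript stood for a gene in lists. Scripts were tested on simulated data. Alternatives were no block, the compared groups alone, quantile normalization, array weights, a filter on dim transcripts, another threshold, unmoderated variances, 1 transcript per gene, an array slope covariate and each array left out. The number of arrays limits the precision.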

Additional observations from a re-analysis of the deposited data

Results flagged for a closer look

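In 6 called genes 1 array stood far from the other 5 of its group, by Dixon's ratio of the gap to the whole range, in 6 of 126 gene and group sets (4.76%), near the 1 in 20 that chance gives. In TiO2 + UVR these were Nr1d2 at 9.59 in replicate 3 (next array 9.26), Kcnrg at 7.17 in replicate 2 (next 6.60), Slc45a3 at 4.94 in replicate 4 (next 5.73) and Lgalsl at 5.85 in replicate 6 (next 6.62). In Control + UVR they were Ddc at 7.46 in replicate 1 (next 8.60) and Tubb2a at 8.64 in replicate 3 (next 8.93). The outlying array widened the difference between the groups for Nr1d2, Kcnrg, Slc45a3 and Lgalsl and narrowed it for Ddc and Tubb2a.

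The TiO2 difference with UVR minus that without UVR passed the test of the interaction in 17 genes. It was 2.13 for Nr1d2, 2.09 for Gdap10, 1.75 for Fmo2, 1.43 for Abcd2, 1.17 for Rnf145, 1.15 for Fnip1, 0.99 for Hlf, 0.88 for Bnip3 and 0.71 for Ipo5 on the log2 scale. It was -2.25 for Tubb2a, -1.65 for Ddc, -1.62 for Slc30a10, -1.35 for Acmsd, -1.26 for Avpr1a, -1.25 for Insig2, -0.96 for Tsc22d1 and -0.88 for Bhmt.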

How the results depend on the processing

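No called gene changed direction under any alternative run. For TiO2 + UVR against Control + UVR, 69 calls became 45 with no replicate block, 110 after quantile normalization, 22 with array weights, 39 at a threshold of 0.05, 204 with the array slope as a covariate and 121 without Organic-UVR replicate 1, and leaving out 1 of the 12 arrays gave 26 to 93. The count was 0 with the clock score as a covariate. That score holds called clock genes and did not overlap between the 2 groups. Its slope came from all arrays of the series, where its SD within groups was 0.45 in Organic + UVR to 1.78 in Control-UVR. With called genes inside the score, this fit cannot tell why the calls were lost. For the interaction, 17 became 7 with no replicate block, 62 in the compared groups alone, 37 after quantile normalization, 48 with array weights, 49 with dim transcripts left out, 36 with 1 transcript per gene, 61 with the array slope and 76 without Organic-UVR replicate 1, and 9 to 34 without 1 array. For TiO2 + UVR against ZnO + UVR, 70 became 46 with no replicate block, 122 after quantile normalization, 131 with array weights, 111 with dim transcripts left out, 188 with the array slope and 111 without Organic-UVR replicate 1, and 38 (without ZnO + UVR replicate 1) to 127 (without TiO2 + UVR replicate 1) without 1 array. The 0 calls of TiO2 + UVR against Organic + UVR became 25 in the compared groups alone and 0 in each fit without 1 array, as for TiO2-UVR against Control-UVR. In the compared groups alone the main comparison called 52 transcripts, 19 higher and 33 lower, and only 33 of the 52 were among the 69. Of the 63 called transcripts with 1 gene symbol, 32 were not called in that fit. Hal, Mthfd1l, Ttll5, Ndrg1, Bnip3 and Coq8a were among those lost. The causes were not tested. Of the 69 calls, 7 lay below the median level of all transcripts. Same-numbered arrays of TiO2 + UVR and Control + UVR correlated between -0.245 and 0.173 in their deviations, and 2 of 6 matched their own number best. These correlations over whole arrays did not show pairing by number. They cannot decide whether single transcripts share variation by number, and the 69 calls became 45 with no replicate block. All 45 were among the 69. The named calls not made with no replicate block were Rgs16, Coq10b, Kcnrg, Acot4, Hmcn1, Ttll5, Klhl24, Gcnt2, Foxo3, Slc16a7, Stat5b, Mreg, Crip2, Rnf144b, Tars, Nfil3, Leap2 and Npas2. With array weights, 42 of the 63 called transcripts with 1 gene symbol were not called. Ciart, Tubb2a, Avpr1a, Coq8a, Map2k6, Acot3, Tsc22d1 and Lgalsl were among those 42. The array slope difference was 0.0115 over all transcripts and -0.00327 over the brighter transcripts (exact permutation p = 0.768).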
